A study of Homo sapiens with 12 samples.

Results

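Knockdown of UBE4B was compared directly with knockdown of LSD1 in HEK293T cells, a human embryonic kidney line that carries the SV40 large T antigen. The comparison took the 3 arrays of cells transfected with shRNA plasmids against UBE4B (shUBE4B) and the 3 arrays of cells transfected with shRNA plasmids against LSD1 (shLSD1), 6 of the 12 arrays of the series, over 18417 genes. The other 6 arrays were 3 of a nontargeting shRNA (shCTRL) and 3 of both knockdowns together (shUBE4B+shLSD1, the double knockdown). All cells were lysed 78 h after transfection, and by the study's account all carried a misfolding-prone mutant of SOD1, which the labels do not name. RNA was hybridized to an array with 1 level per transcript cluster, and levels and differences below are on the log2 scale. Sample titles name biological replicates without saying how their cultures were kept apart, so p-values measure the spread between these arrays, which may be in part technical. The direct contrast does not draw its means from the control arrays, which varied more among themselves than those of either knockdown.

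UBE4B is a ubiquitin chain elongation factor (an E4 enzyme) that extends ubiquitin chains on proteins already marked and works with the p97 ATPase, and it is also known as a ligase for p53. LSD1, whose gene is KDM1A, removes methyl groups from lysine 4 of histone H3 and from other proteins, p53 among them. LSD1 sits in the CoREST complex, which the factor REST recruits to neuronal genes to keep them silent outside the nervous system. A direct contrast asks which transcripts separate the loss of one of these lysine-modifying enzymes from the loss of the other, a question that 2 separate comparisons with a shared control do not answer.

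The target sequences of the plasmids are shown because they are the only difference in treatment between the 2 groups. The study lists 4 commercial plasmids per gene, each with a target of 29 bases, and does not state which plasmids were used for the arrays. It also lists a further plasmid of its own per gene, against the 3' untranslated region, which was not compared here. Capitals mark the longest run shared by any of the 28 pairs of the 29-base targets, 10 bases long and held by 2 UBE4B plasmids. Between a UBE4B and an LSD1 target of this set the longest shared run was 7 bases.
shUBE4B #69: caTTTCACCATTgaaacctgcaaagagac
shUBE4B #70: agagtcttggtctcaatgtccacaacatg
shUBE4B #71: taacgccTTTCACCATTaagaggaaagcg
shUBE4B #72: gcagtcagccagcttctgagcaacatccg
shLSD1 #45: agccacctgacagtaaggaatggctactc
shLSD1 #46: gatactgtgcttgtccaccgagttcacag
shLSD1 #47: ggatttggcaaccttaacaaggtggtgtt
shLSD1 #48: tcaaagatgagcagattgaacattggaag
With 1 set of plasmids per gene, a change that follows the loss of the target and a change that follows the plasmid sequence cannot be told apart in these arrays.

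Each targeted transcript was low in its own knockdown and at the control level in the other. UBE4B read 8.89, 9.06 and 8.89 in shUBE4B against 10.38, 10.44 and 10.45 in shLSD1. The difference was -1.47 ± 0.09 (SE), or 2.78-fold, and the shCTRL arrays read 10.28 to 10.39. KDM1A read 10.94, 10.98 and 10.93 in shUBE4B against 9.46, 9.84 and 9.61 in shLSD1. The difference was 1.31 ± 0.10 (SE), or 2.49-fold, and the shCTRL arrays read 10.83 to 10.96. These 2 genes check the labels and are no finding, and no array went against its label.

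Array medians lay between 7.00 and 7.06. The median SD within a group was 0.072 in shUBE4B, 0.075 in shLSD1, 0.114 in shCTRL and 0.088 in the double knockdown. Of 10 HEK293 markers 7 stood above the median gene, while of 14 measured markers of other lineages CDX2 was the 1 that did. The summed level of those 14 markers, as their mean per array, ran from 5.71 to 5.78 in shUBE4B and from 5.80 to 5.85 in shLSD1, and no member passed the test. Fewer cells of a kind and less RNA per cell cannot be told apart in such lysates.

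**Figure D1:**
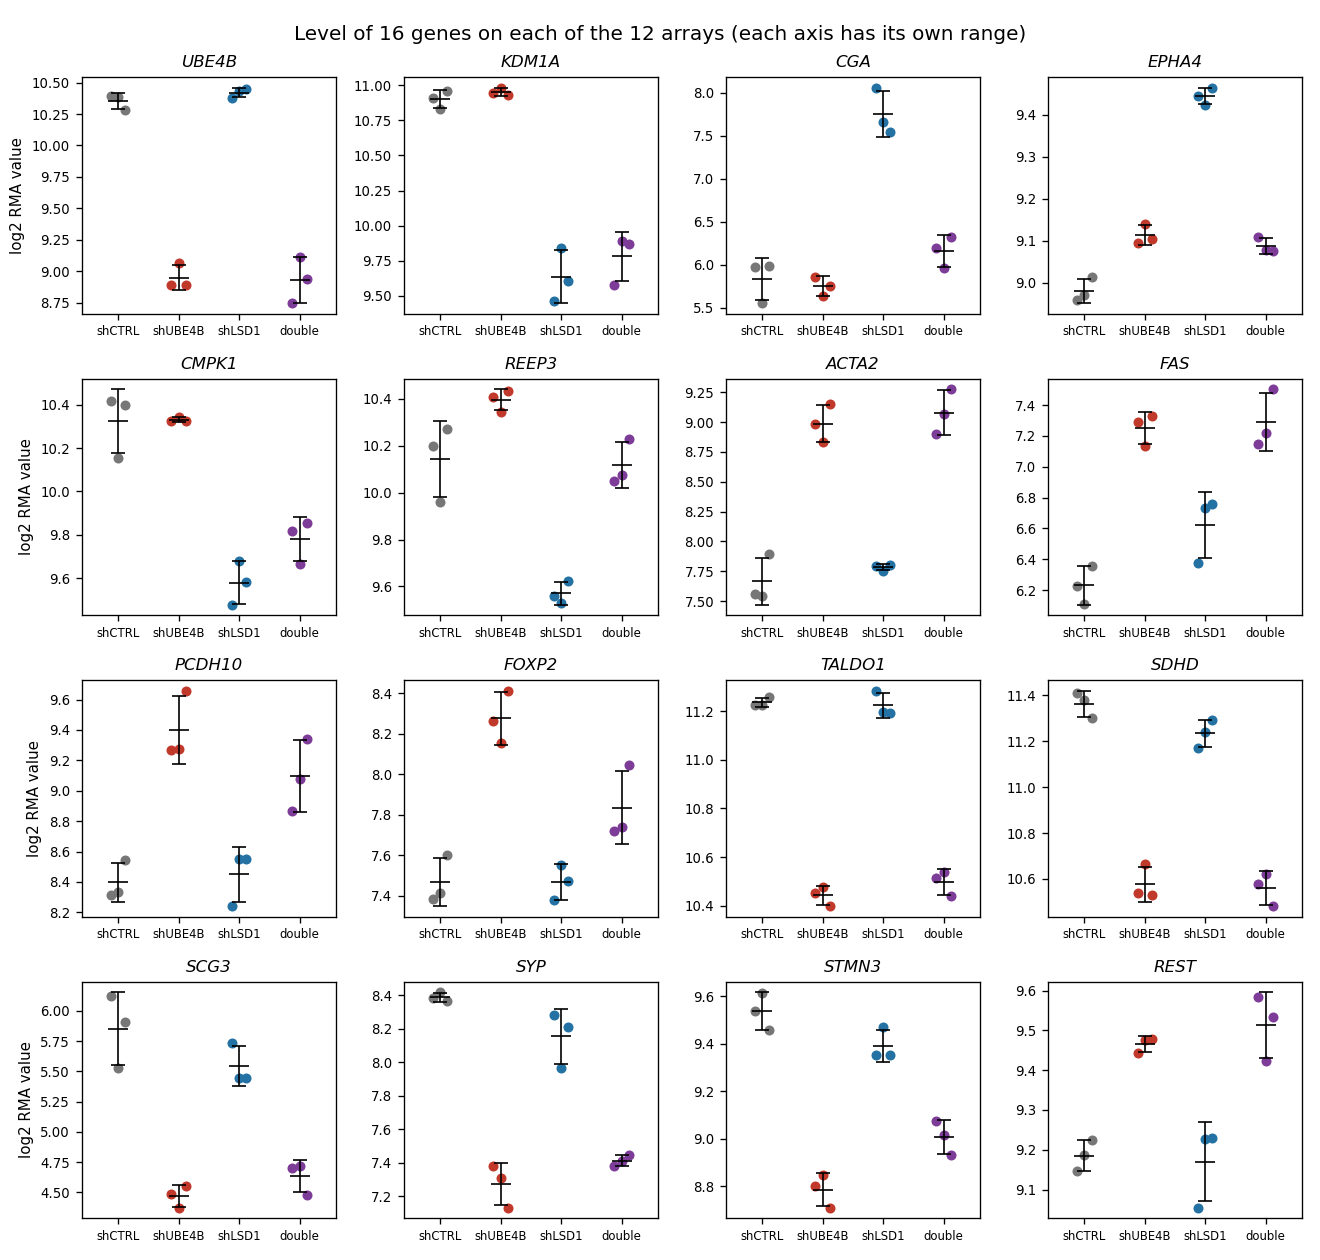
Log2 RMA value (vertical axes, each with its own range) of 16 genes on the 12 arrays by group, with each point 1 array and the bar and whiskers the mean and SD of 3 arrays. UBE4B and KDM1A were low in their own knockdown, CGA and EPHA4 were high in shLSD1, and the genes of the lower rows left the control level in shUBE4B and in the double knockdown.

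The knockdowns differed at 1006 of 18417 genes, 5.46% of those tested (limma, Benjamini-Hochberg adjusted p under 0.05). Of these, 530 genes (2.88%) were higher in shUBE4B and 476 (2.58%) were lower. Most differences were small, with a median size of 0.361, and 83 called genes differed by over 1.5-fold. The 6 genes past 2-fold were CGA, UBE4B and SCG3 among those lower in shUBE4B and KDM1A, ACTA2 and ZC3H6 among those higher. The median difference over all genes was -0.017. In all 1006 called genes the 3 arrays of one knockdown lay apart from the 3 of the other, which held for 32.0% of all genes tested. Against shCTRL, 10.1% of genes were called in shUBE4B and 0.82% in shLSD1, in fits that share the control arrays.

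The count depended on each array of the contrast. It was 413, 441 and 426 without shUBE4B replicate 1, 2 or 3, and 423, 471 and 396 without shLSD1 replicate 1, 2 or 3. It was 1662 without shCTRL replicate 2, the array with the lowest estimated weight, which enters this contrast only through the shared estimate of spread. A call is described below as held throughout where it was also made in every alternative fit per gene that tested it and with each of the 12 arrays left out in turn. An alternative fit to all transcript clusters, not reduced to 1 per gene, was not used for this. The methods' t-test named below is the study's t-test with a Benjamini-Hochberg adjusted p under 0.05. The study's own threshold was 1.2-fold with an unadjusted p under 0.05, so a call lost here may still pass there.

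**Figure D2:**
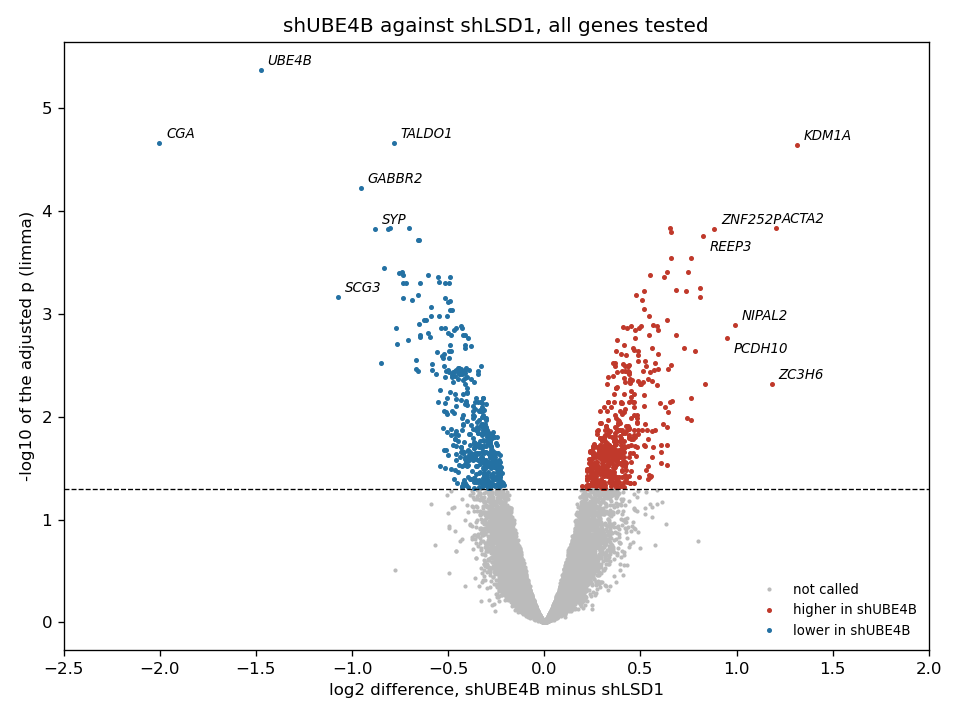
Log2 difference (shUBE4B minus shLSD1, horizontal axis) against the -log10 of the limma adjusted p (vertical axis) for 18417 genes, with the dashed line at an adjusted p of 0.05. The 530 genes higher in shUBE4B are red, the 476 lower are blue, and CGA, at -2.00, lies farthest from 0.

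Apart from KDM1A, the genes highest in shUBE4B relative to shLSD1 were led by ACTA2, the smooth muscle actin. ACTA2 read 8.98, 8.83 and 9.15 in shUBE4B and 7.80, 7.75 and 7.80 in shLSD1. The groups were far apart, by 1.2 ± 0.11 (SE, adjusted p = 0.000146 in limma), a 2.30-fold difference. ZC3H6, which encodes a CCCH zinc finger protein, read 8.79, 8.87 and 9.17 against 7.61, 7.70 and 7.97, a difference of 1.18 ± 0.20 (SE). NIPAL2, a member of the NIPA family of magnesium transporters, read 8.77, 8.66 and 8.72 against 7.81, 7.59 and 7.79, a difference of 0.99 ± 0.13 (SE). All 3 calls held throughout. Separation of the arrays was a condition for naming these genes and adds no support.

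PCDH10, a protocadherin of neuronal cell adhesion, read 9.27, 9.27 and 9.66 in shUBE4B and 8.24, 8.55 and 8.55 in shLSD1, a 1.93-fold difference. FOXP2, a forkhead factor known from speech and language development, read 8.26, 8.15 and 8.41 against 7.38, 7.55 and 7.47, a difference of 0.81 ± 0.10 (SE). PLPPR4, a phospholipid phosphatase-related membrane protein of neurons, read 7.30, 7.14 and 7.34 against 6.06, 6.55 and 6.66. The call of FOXP2 held throughout, and those of PCDH10 and PLPPR4 were lost only under the methods' t-test. Of the remaining genes among the 15 highest, UGCG makes glucosylceramide (difference 0.78), KDELR3 returns escaped proteins to the endoplasmic reticulum (0.76), CDKN3 is a phosphatase of cyclin-dependent kinases (0.77), TRMT10A methylates tRNA (0.76) and SLC9A2 exchanges sodium for protons (0.81). ZNF252P is annotated as a pseudogene and differed by 0.88, and its probes may also read related zinc finger transcripts. KDELR3 lost its call without shLSD1 replicate 1, without shUBE4B replicate 3 and under the methods' t-test.

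CGA, the alpha subunit shared by the pituitary and placental glycoprotein hormones, showed the widest separation in the contrast. It read 5.86, 5.64 and 5.75 in shUBE4B and 8.06, 7.66 and 7.54 in shLSD1. The difference was -2.00 ± 0.14 (SE, adjusted p = 2.17e-05 in limma), or 4.01-fold. The shUBE4B arrays lay among the shCTRL arrays (5.97, 5.55 and 5.98), so it was the LSD1 knockdown in which CGA stood high. The double knockdown read 6.20, 5.96 and 6.32, close to shUBE4B and far below shLSD1 although LSD1 was knocked down there too.

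Among the other genes lowest in shUBE4B were SCG3 and SYP, proteins of secretory granules and synaptic vesicles, which are described with their groups below. GABBR2, a subunit of the GABA B receptor, read 7.78, 8.01 and 7.84 in shUBE4B and 8.76, 8.80 and 8.93 in shLSD1, a 1.94-fold difference. TALDO1, the transaldolase of the pentose phosphate pathway, read 10.45, 10.48 and 10.40 against 11.28, 11.19 and 11.19. Its difference of -0.78 ± 0.06 (SE) had the same adjusted p as CGA, 2.17e-05 in limma. The 3 arrays of TALDO1 within each knockdown lay close together, and shCTRL lay at the shLSD1 level, from 11.23 to 11.26.

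EMC7, a subunit of the membrane complex that inserts proteins into the endoplasmic reticulum, differed by -0.82, and CALU, a calcium-binding protein of the same compartment, by -0.85. GNPTAB, which begins the mannose 6-phosphate tag that sends enzymes to lysosomes, differed by -0.76. TRIM71, a ubiquitin ligase and RNA-binding protein of early development, differed by -0.74, ELK3, an ETS factor, by -0.74, the RNA-binding protein RBPMS2 by -0.80 and the solute carrier SLC35F1 by -0.83. CALU lost its call under the methods' t-test, and the calls of the other 6 genes held throughout. Over these 7 genes the difference from shCTRL ran from -0.16 to 0.21 in shLSD1 and from -0.89 to -0.56 in shUBE4B.

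For a smaller set of genes the LSD1 knockdown was the one that had left the control level. CMPK1, the kinase that phosphorylates UMP and CMP, read 10.32, 10.34 and 10.32 in shUBE4B and 9.48, 9.68 and 9.58 in shLSD1. Its difference from shCTRL was 0.01 in shUBE4B and -0.74 in shLSD1 (adjusted p = 0.0019 in limma). REEP3, which shapes the endoplasmic reticulum, read 10.41, 10.35 and 10.43 against 9.56, 9.53 and 9.62, and its difference from shCTRL was 0.25 in shUBE4B and -0.57 in shLSD1. EPHA4, an ephrin receptor of axon guidance, read 9.09, 9.14 and 9.10 in shUBE4B and 9.45, 9.42 and 9.46 in shLSD1, with shCTRL at 8.96 to 9.01. NDUFB8, a subunit of respiratory complex I, read 10.74, 10.74 and 10.73 against 10.42, 10.40 and 10.38, with shCTRL at 10.69 to 10.77. MYOF, a ferlin of membrane repair, differed by -0.67 in the direct contrast, by -0.14 from shCTRL in shUBE4B and by 0.53 in shLSD1. All but MYOF, lost under the methods' t-test, held throughout.

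The means of the control and double knockdown arrays did not enter the difference between the single knockdowns, although these arrays did enter the calls through the shared estimate of spread. Their place between the 2 single knockdowns was taken as a description. A position of 0 is the shLSD1 mean of a gene and 1 the shUBE4B mean. Of the 530 genes higher in shUBE4B, shCTRL lay nearer to shLSD1 in 388 (73.2%), and of the 476 lower genes in 393 (82.6%). Over the genes not called, shCTRL lay nearer to shLSD1 in 63.4%. The double knockdown divided by direction. It lay nearer to shUBE4B in 409 of the 476 genes lower in shUBE4B (85.9%, median position 0.807) and in 283 of the 530 higher genes (53.4%, median position 0.531), against 48.0% of the genes not called. Among the higher genes, ACTA2 (position 1.08) and FAS (1.06) had the full shUBE4B level in the double knockdown, whereas UGCG (0.17), CMPK1 (0.27) and BECN1 (-0.03) stood near shLSD1. The difference between the 2 directions was not tested.

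**Figure D3:**
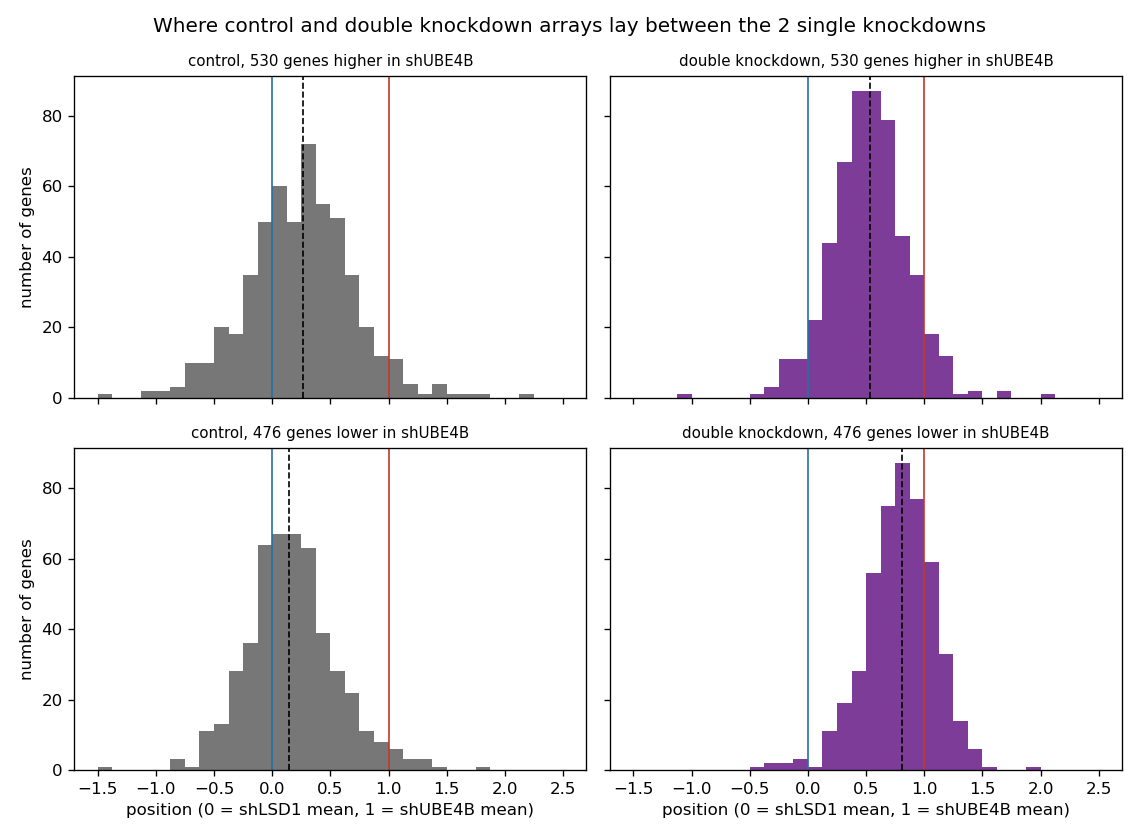
Number of genes (vertical axis) by the position of the shCTRL mean (left) or the double knockdown mean (right) on a scale where 0 is the shLSD1 mean and 1 the shUBE4B mean (horizontal axis), for 530 genes higher (top) and 476 lower (bottom) in shUBE4B. Dashed lines mark medians of 0.261 and 0.143 for shCTRL and of 0.531 and 0.807 for the double knockdown.

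Neuronal genes known to be repressed through REST had the largest share of lower members among the gene lists. Of 38 measured members, 12 were lower in shUBE4B than in shLSD1, 1 (NEFL) was higher and 25 were not called. All genes together gave 2.58% lower and 2.88% higher. The median difference of the 38 was -0.155, beside -0.017 over all genes, and 33 of 38 lay below 0. Of 14 markers of other lineages, at a median percentile of 17.2 in mean level, 13 also lay below 0, with a median difference of -0.078. Whether dim genes in general read lower in shUBE4B was not tested. The neuronal list was written with earlier results of these data known and carries no p-value. Its median against shCTRL was -0.158 in shUBE4B and -0.024 in shLSD1, 2 values that share the control arrays.

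SCG3 (secretogranin III), which sorts cargo into secretory granules, read 4.49, 4.37 and 4.55 in shUBE4B and 5.73, 5.45 and 5.45 in shLSD1. The difference was -1.07 ± 0.13 (SE, adjusted p = 0.000682 in limma), and the shCTRL arrays lay higher still, from 5.52 to 6.12. SCG3 was among the dim genes of the array, at percentile 10.8 of mean level. SYP (synaptophysin), a membrane protein of synaptic vesicles, read 7.38, 7.31 and 7.13 against 8.28, 7.97 and 8.21, a 1.84-fold difference. STMN3, a stathmin that binds tubulin in neurons, read 8.80, 8.85 and 8.71 against 9.35, 9.47 and 9.35. No shUBE4B array of these 3 genes reached an shLSD1 array, as in all 1006 called genes and 32.0% of all genes in either direction.

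RUNDC3A, an effector of small GTPases in neurons, differed by -0.77, and CPLX1, a complexin that clamps vesicle fusion, by -0.66. UNC13A, which primes vesicles, differed by -0.49, the granule protein CHGB by -0.48, the kinase scaffold MAPK8IP2 by -0.43, the synaptotagmin SYT11 by -0.42 and the synapsin SYN1 by -0.42. Like SCG3, UNC13A, CHGB and SYT11 were dim, at percentiles 20.82, 17.4 and 18.26 of mean level. The potassium channel KCNH2 differed by -0.31 and the cadherin CELSR3 by -0.30. NEFL, the light neurofilament chain, was the exception at 0.37, with 9.60, 9.58 and 9.79 in shUBE4B and 9.28, 9.31 and 9.28 in shLSD1. The calls of SCG3, RUNDC3A, STMN3 and MAPK8IP2 held throughout, and the list gave 8 calls without shLSD1 replicate 1 or 3 and 7 under the methods' t-test.

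**Figure D4:**
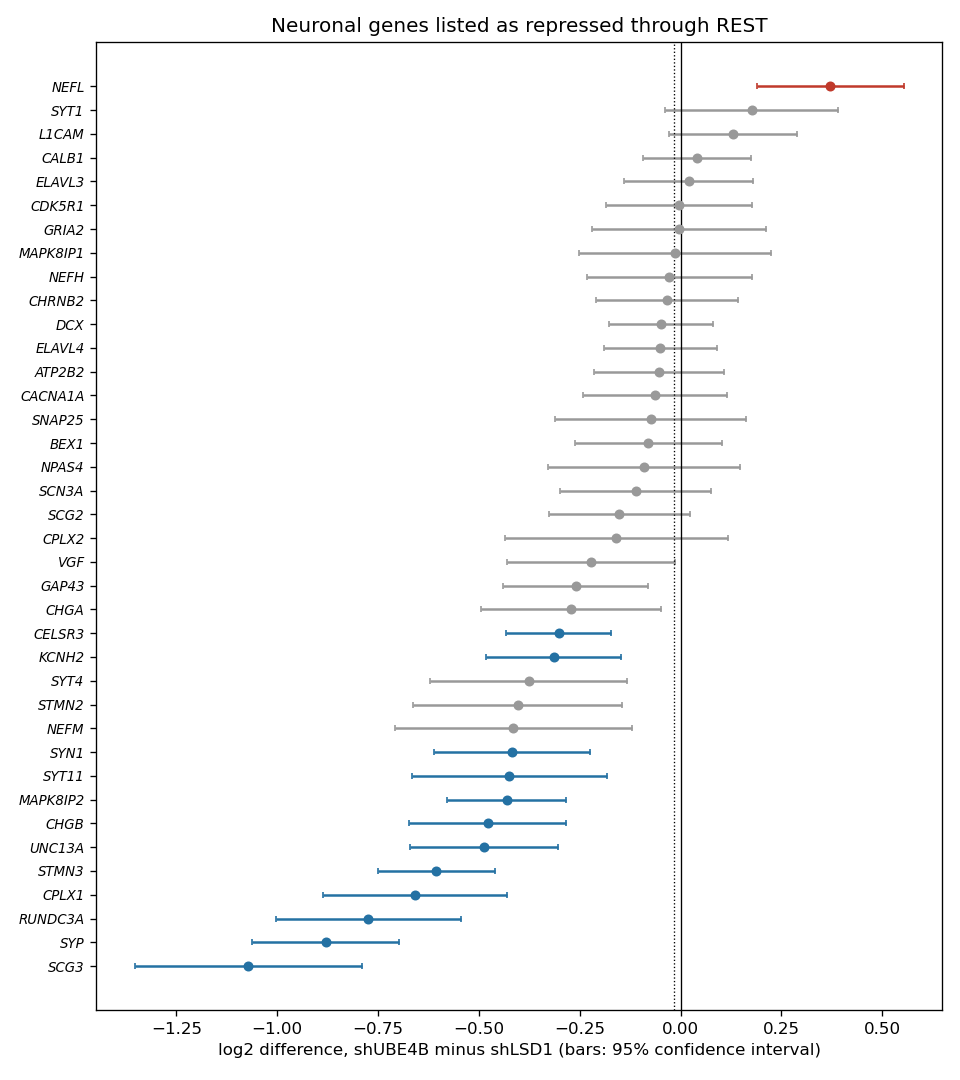
Log2 difference (shUBE4B minus shLSD1, horizontal axis) of the 38 measured neuronal genes listed as repressed through REST, 1 gene per line, with 95% confidence intervals. The 12 genes called lower are blue, NEFL, called higher, is red, grey genes were not called, and the dotted line is the median of all genes, -0.017.

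Of 22 measured genes of REST and the CoREST complex 3 were called (13.6%, against 5.46% of all genes). That share counts the targeted KDM1A, whose call checks the labels and is no finding. KDM1A and REST were higher in shUBE4B and RCOR1 lower. REST read 9.44, 9.48 and 9.48 in shUBE4B against 9.05, 9.23 and 9.23 in shLSD1, a difference of 0.30 ± 0.07 (SE, adjusted p = 0.0214 in limma). The double knockdown read 9.42 to 9.58, level with shUBE4B. RCOR1, the scaffold of CoREST, read 9.62, 9.57 and 9.53 against 9.97, 9.85 and 9.88, a difference of -0.33 ± 0.06 (SE). The call of RCOR1 held throughout. That of REST was lost without shLSD1 replicate 1, without any 1 of the 3 shUBE4B arrays and under the methods' t-test. Of 25 other histone demethylases 1 was called, KDM4A at -0.27, which lost its call without any 1 of the 6 arrays.

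REST binds a long element, whose left arm was searched for here as TTCAGCACC and whose right arm as GGACAGCG, on both strands of RefSeq promoter windows (build GRCh38.p14), after the values had been seen. The left arm occurred in 0.471% of 14239 tested genes with a window, in 4 of 385 genes lower in shUBE4B (1.04%) and in 0 of 448 higher genes. These 4 were all members of the neuronal list, so no lower gene outside that list held the left arm. The right arm occurred in 2.67% of all, 4.16% of the lower and 2.46% of the higher genes. Of the 25 listed neuronal genes with a window, 5 held the left arm. Each is given here as 30 bases that start just before it, because these are the members in which the letters were found, and capitals mark an arm.
SCG3, chr15:51681507-51681536, plus strand: gaacTTCAGCACCcacagggcGGACAGCGc
UNC13A, chr19:17688336-17688365, plus strand: ttggTTCAGCACCgggggcgcGGACAGCGc
SYN1, chrX:47620065-47620094, minus strand: cagcTTCAGCACCgcggacagtgccttcgc
CELSR3, chr3:48663009-48663038, minus strand: tctgTTCAGCACCaggagcaacgctcacgt
GRIA2, chr4:157220383-157220412, minus strand: gcctTTCAGCACCgaGGACAGCGcctcgct
Of these 5 genes, 4 also held the exact letters of the right arm. In SCG3 and UNC13A it followed the left at the same spacing, in GRIA2 it followed more closely, and in CELSR3 it lay elsewhere in the window. SYN1 held the similar letters ggacagtg at the spacing of GRIA2, which an exact search does not count. SCG3, UNC13A, SYN1 and CELSR3 were all lower in shUBE4B, while GRIA2 was not called, with a difference of -0.0046 and a mean level at percentile 5.36. A match is a description of letters in this window and says nothing of binding in these cells.

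Genes of secretory granules and synaptic vesicles, a list that shares members with the one above, gave 6 of 37 lower in shUBE4B and 1 higher. These were 16.2% and 2.7% of the list, against 2.58% and 2.88% of all genes. Besides SCG3, SYP, CHGB and SYT11, the lower members were RAB3C, a small GTPase of vesicles, and SV2A, a vesicle glycoprotein. RAB3C read 6.61, 6.74 and 6.57 in shUBE4B and 7.63, 7.48 and 7.12 in shLSD1, a 1.70-fold difference. The higher member was CPE, the carboxypeptidase that trims prohormones, at 9.13, 9.11 and 9.31 against 8.61, 8.80 and 8.88. The list gave 4 calls without shLSD1 replicate 1, 2 or 3 or shUBE4B replicate 1, and 2 under the methods' t-test.

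Genes activated by p53 moved in both directions between the knockdowns. Of 46 measured, 7 (15.2%) were higher in shUBE4B and 2 (4.35%) lower, against 2.88% and 2.58% of all genes. The median was 0.109, beside -0.017 over all genes. FAS, a death receptor, read 7.29, 7.13 and 7.33 in shUBE4B and 6.38, 6.73 and 6.76 in shLSD1, with shCTRL lower still at 6.11 to 6.36. MDM2, the ubiquitin ligase that restrains p53, read 11.42, 11.42 and 11.31 against 10.88, 10.83 and 10.90, a difference of 0.51 ± 0.09 (SE). The receptor EDA2R differed by 0.53, the DNA repair factor DDB2 by 0.49, the ribonucleotide reductase subunit RRM2B by 0.43, and CYFIP2 and TP53I3 by 0.25 each. PMAIP1 (NOXA), which promotes apoptosis, read 9.77, 9.69 and 9.85 in shUBE4B and 10.31, 10.21 and 10.29 in shLSD1, a difference of -0.50 ± 0.07 (SE). TP53INP1 differed by -0.36. CDKN1A (p21), the best known p53 target, differed by 0.11 with a 95% interval from -0.09 to 0.31.

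A panel of 11 p53 targets was chosen in the original work on these samples, so its direction is no independent evidence. In it ACTA2, CAV1, FAS and TP53I3 were higher in shUBE4B and PMAIP1 and TP53INP1 were lower. These were 36.4% and 18.2% of the panel, against 2.88% and 2.58% of all genes. CAV1, the caveolar coat protein, differed by 0.64 ± 0.14 (SE) and was the 1 called gene among 9 of caveolae. STAG1 differed by 0.19, TIGAR by 0.08, SESN1 by 0.06, DRAM1 by 0.38 and MAPK8 by 0.07, and none of these passed the test. The calls of ACTA2, MDM2, EDA2R, DDB2, RRM2B and PMAIP1 held throughout. CAV1 lost its call without shLSD1 replicate 1 or 2 or shUBE4B replicate 2 or 3, and the 46 genes gave 6 calls without shLSD1 replicate 1 or 3 or shUBE4B replicate 3.

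Genes of amino acid stress and of serine metabolism were lower in shUBE4B where they were called. Of 28 measured genes of the ATF4 response, 4 (14.3%) were lower and 0 higher, against 2.58% and 2.88% of all genes. In this list 23 lay below 0 and the median was -0.15, beside -0.017 over all genes. STC2, a secreted stanniocalcin, read 8.50, 8.52 and 8.56 in shUBE4B and 9.00, 9.16 and 9.18 in shLSD1, a 1.51-fold difference. BCAT1, which transaminates branched-chain amino acids, differed by -0.56, DDIT4, an inhibitor of mTORC1, by -0.51 and ATF3 by -0.36. Of 19 genes of serine and one-carbon metabolism, MTHFD2 (-0.48), PSAT1 (-0.42) and PSPH (-0.27) were lower, 15.8% of the list. PSAT1 read 10.35, 10.43 and 10.33 against 10.76, 10.80 and 10.82, and shCTRL stood at 10.96 to 11.09, above both knockdowns.

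SLC7A1, the carrier of cationic amino acids, was the 1 called of 28 amino acid transporters, at 10.46, 10.58 and 10.58 in shUBE4B and 10.95, 11.00 and 11.05 in shLSD1. That was 3.57% of the transporters, against 5.46% of all genes. None of 20 aminoacyl-tRNA synthetases was called. The calls of STC2, MTHFD2, PSAT1 and SLC7A1 held throughout. The ATF4 list gave 2 calls without shLSD1 replicate 3, and PSPH was lost without any 1 of the 6 arrays.

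Lists of protein quality control, the subject of the study, differed in their share of calls, from 0 in the proteasome and heat shock lists to 10.0% of autophagy, 16.1% of endoplasmic reticulum and 17.8% of lysosomal genes, against 5.46% of all genes. Of 20 measured partners of p97 and ubiquitin chains the 1 called was UBE4B itself. None of 37 proteasome subunits was called, and PSMD11, a subunit of the regulatory particle, differed by 0.03 with a 95% interval from -0.10 to 0.15. None of 30 cytosolic heat shock proteins was called. Of 28 FOXO factors and targets, CDKN1B (p27, 0.49) and the mitochondrial kinase PINK1 (0.27) were higher in shUBE4B. FOXO3 differed by -0.02 and FOXO4 by -0.03. CDKN1B read 10.38, 10.33 and 10.44 in shUBE4B and 9.99, 9.85 and 9.85 in shLSD1, and its call held throughout.

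Of 40 autophagy genes 4 were higher in shUBE4B and 0 lower, with 29 above 0 and a median of 0.088. They were the initiating kinase ULK2 (0.55), the conjugating enzyme ATG10 (0.36), BECN1 of the lipid kinase complex (0.32) and WDR45 (0.26), which binds the lipid that this kinase makes. BECN1 read 9.00, 8.97 and 8.88 in shUBE4B and 8.63, 8.64 and 8.62 in shLSD1. ULK2 read 7.75, 7.75 and 7.91 against 7.06, 7.21 and 7.50, with shCTRL at 7.58 to 8.01. These were fragile calls, and 0 of the 4 remained without shLSD1 replicate 1 or shUBE4B replicate 1 or 2.

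Of 45 lysosomal genes 4 were higher and 4 lower. The lysosomal mannosidase MAN2B1 (-0.50), the peptidase TPP1 (-0.29), the cathepsin CTSF (-0.23) and the proton pump subunit ATP6V1H (-0.22) were lower, and the sphingomyelinase SMPD1 (0.38), the cathepsin CTSH (0.38), the sulfatase IDS (0.26) and the glucuronidase GUSB (0.25) were higher. This list gave 1 call without shUBE4B replicate 1 or 3. Of 31 genes of endoplasmic reticulum folding and stress, the co-chaperone DNAJC3 (-0.47), the factor XBP1 (-0.33), the disulfide isomerase PDIA6 (-0.30) and the chaperone HYOU1 (-0.28) were lower and DERL2 (0.25), of the degradation channel, was higher, while 26 of 31 lay below 0. DNAJC3 read 8.54, 8.60 and 8.45 in shUBE4B and 8.95, 9.04 and 8.99 in shLSD1 and held throughout. The list gave 1 call without shLSD1 replicate 2 or 3 or shUBE4B replicate 1.

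**Figure D5:**
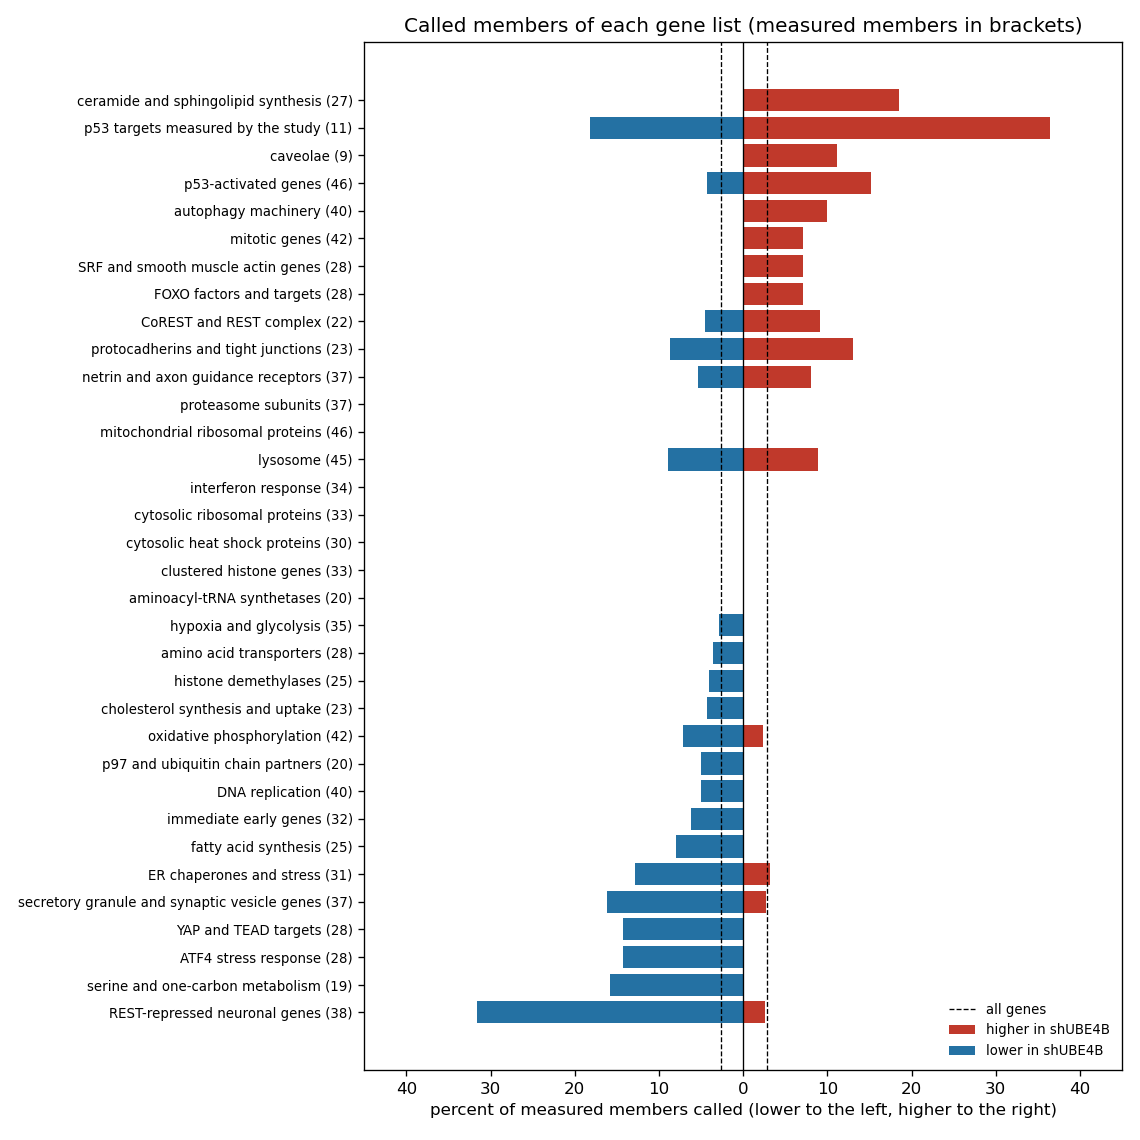
Share of measured members called (percent, horizontal axis) in each gene list (vertical axis, measured members in brackets), higher in shUBE4B to the right in red and lower to the left in blue, with dashed lines at the shares over all genes, 2.88% and 2.58%. The REST-repressed neuronal genes reach farthest to the left, with 12 of 38 lower, and the panel of 11 p53 targets farthest to the right, with 4 higher.

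Ceramide and sphingolipid synthesis gave 5 of 27 genes higher in shUBE4B (18.5%, against 2.88% of all genes) and 0 lower. UGCG, the first step to glycosphingolipids, read 8.59, 8.62 and 8.58 in shUBE4B and 7.65, 7.91 and 7.89 in shLSD1, a 1.72-fold difference, and its call held throughout. SGMS2, a sphingomyelin synthase, differed by 0.52, the sphingomyelinase SMPD1 by 0.38, the phosphatase SGPP1 by 0.35 and ORMDL2, which restrains serine palmitoyltransferase, by 0.27. These enzymes work both for and against ceramide. Without shLSD1 replicate 2 or shUBE4B replicate 2 the list gave 1 call. The next 2 lists were called at shares near the 5.46% of all genes. Of 23 genes of cholesterol synthesis INSIG1, which holds back sterol synthesis, was the 1 called (4.35%), at -0.45. Of 25 genes of fatty acid synthesis 2 (8.0%) were lower, the desaturase SCD5 (-0.47) and ACLY (-0.26), which makes acetyl-CoA from citrate. Neither call remained without shLSD1 replicate 1, 2 or 3 or shUBE4B replicate 1.

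Mitotic and replication genes were called at shares near the 5.46% of all genes. Of 42 mitotic genes 3 (7.14%) were higher in shUBE4B, the kinesin KIF14 (0.36), the proliferation marker MKI67 (0.26) and the spindle protein ASPM (0.22), with 32 above 0. No call of the 3 remained without any 1 of the 6 arrays. Of 40 replication genes 2 (5.0%) were lower, the cyclin CCNE1 (-0.32) and the clamp loader subunit RFC3 (-0.30). CCNE1 was among the genes that moved in the LSD1 knockdown, with differences from shCTRL of 0.02 in shUBE4B and 0.34 in shLSD1. Of 32 immediate early genes ATF3 and MYC (-0.29) were lower (6.25% of the list), 28 lay below 0 and the median was -0.154. Both were lost without shLSD1 replicate 2 or 3 or shUBE4B replicate 2 or 3.

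Genes of the cell surface and skeleton went both ways. Of 28 YAP and TEAD genes 4 were lower in shUBE4B, MYOF, the factor TEAD1 (-0.32), the matrix protein CCN2 (-0.30) and the coactivator WWTR1 (-0.27), and 0 were higher. These 4 were 14.3% of the list, against 2.58% of all genes lower and 5.46% called in either direction. TEAD1 held throughout, and the list gave 2 calls without shLSD1 replicate 1 or 2 or shUBE4B replicate 2. Of 28 SRF genes, ACTA2 and the coactivator MRTFB were higher, 7.14% of the list and near the share over all genes. MRTFB read 9.39, 9.38 and 9.41 in shUBE4B and 9.01, 9.03 and 8.89 in shLSD1. Of 23 protocadherins and tight junction genes, PCDH10, PCDH7 (0.37) and CLDN1 (0.39) were higher and TJP3 (-0.54) and CLDN12 (-0.33) lower, 21.7% in all.

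Of 37 genes of netrin signalling and axon guidance, the ephrin receptor EPHA7 (0.51), the co-receptor NRP1 (0.37) and the netrin receptor UNC5C (0.32) were higher, and SEMA6A (-0.41) and EPHA4 (-0.33) lower. Together they made 13.5% of the list, against 5.46% of all genes. UNC5C and CLDN12 had left the control level in both knockdowns, more in shUBE4B. UNC5C read 8.28, 8.25 and 8.25 in shUBE4B, 7.90, 8.01 and 7.90 in shLSD1 and 7.22 to 7.46 in shCTRL. CLDN12, a claudin, read 9.41, 9.63 and 9.51 in shUBE4B, 9.82, 9.92 and 9.80 in shLSD1 and 10.25 to 10.37 in shCTRL. The calls of EPHA7, NRP1, EPHA4, PCDH7, TJP3 and MRTFB held throughout. UNC5C was lost without shLSD1 replicate 1 or 3 or any 1 of the 3 shUBE4B arrays, and CLDN12 without any 1 shLSD1 array or shUBE4B replicate 1 or 3.

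Of 42 genes of oxidative phosphorylation, SDHD (-0.66), ATP5MC1 (-0.52) and NDUFA9 (-0.25) were lower in shUBE4B and NDUFB8 (0.33) was higher. Together they made 9.52% of the list, against 5.46% of all genes. SDHD, which anchors succinate dehydrogenase in the membrane, read 10.54, 10.66 and 10.53 in shUBE4B and 11.17, 11.24 and 11.29 in shLSD1, a 1.58-fold difference. The symbol SDHD had 2 transcript clusters on the array, and these values are of the brighter. Whether that cluster reads SDHD itself or a related sequence was not tested. ATP5MC1, a subunit of the rotor ring of ATP synthase, read 11.41, 11.46 and 11.29 against 11.93, 11.91 and 11.87. These few subunits stood apart from their complexes, since 38 of the 42 genes were not called and the median of the list was 0.022. SDHD, ATP5MC1 and NDUFB8 held throughout. Of 35 genes of hypoxia and glycolysis ENO2, the neuronal enolase, was the 1 called (2.86%), at -0.51.

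In 8 lists with 247 measured members none was called (limma adjusted p), among them the proteasome, the heat shock proteins, the cytosolic and mitochondrial ribosomal proteins and the clustered histones. With array weights the fit called 5 of the 34 interferon response genes and 4 of the 30 heat shock genes, where it called 13.9% of all genes, so that both lists lay near that share. At an unadjusted p under 0.05, 3726 of all 18417 genes passed in limma.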

How the data were processed

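Total RNA of HEK293T cells was hybridized to Affymetrix Human Gene 1.0 ST arrays, 3 per group and 12 in all. The values deposited by the authors are log2 expression levels per transcript cluster, made with RMA (background correction, quantile normalization and probe summary) in Partek against hg19 per the labels, with versions not given in the sources used here. The deposited columns of the authors' own comparisons were not used. The labels and the supplementary methods name different labelling kits. Of 33297 clusters, 19460 carried exactly 1 gene symbol, 1754 several and 12083 none, and the brightest cluster stood for each of 18417 genes.

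Differences were fitted here in limma 3.58.1 (R 4.3.3) with 4 group means over 12 arrays (8 residual and 5.13 prior degrees of freedom), so that all groups shared 1 estimate of spread. Tests were two-sided, with Benjamini-Hochberg adjustment over all 18417 genes, and a gene was called at an adjusted p under 0.05. The methods' t-test, which the study states, was run on the 6 arrays of the contrast as an alternative. Its calls were made here at an adjusted p under 0.05, not at the study's 1.2-fold and unadjusted p under 0.05. On simulated data of the same size for this contrast, the fit recovered 82 of 100 changes of 0.5 and 100 of 100 changes of 1 (log2), and called 8 unchanged genes. The simulated noise was independent between arrays and of equal spread in all groups, unlike that of these arrays, so the counts may not hold for them. Array data have no read depth, and the number of arrays limits the precision.

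Named genes are the 2 targets, the 15 highest and 15 lowest called genes with arrays apart, up to 4 called members per list and a fixed set of p53, FOXO and proteasome genes. A further 20 called list members were named after their values were seen. The members and lists were chosen with earlier results of these data known. Alternatives changed the arrays in the fit, the spread model, the normalization, the cluster summary, a filter on dim genes, the test and the threshold, left out each array in turn, and used the replicate number as a block. Promoter windows came from RefSeq tables of GRCh38.p14 and plasmid targets from the study's supplementary methods.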

Additional observations from a re-analysis of the deposited data

How the results depend on the processing

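The direct contrast called 1006 genes, 530 higher and 476 lower in shUBE4B. Leaving out 1 array at a time gave 396 calls (without shLSD1 replicate 3) to 1662 (without shCTRL replicate 2), 195 to 931 of them higher and 196 to 731 lower, and leaving out any 1 of the 6 arrays of the contrast gave 396 to 471. Array weights gave 2551 (1362 higher, 1189 lower), the fit to 9 arrays without shCTRL 1692 (945 and 747), and the fit to the 6 arrays alone 1774 (988 and 786). The methods' t-test gave 663 after Benjamini-Hochberg adjustment (347 and 316), of which 388 were also called in limma, and 1395 at the study's 1.2-fold and unadjusted p under 0.05, a threshold that passed 1565 genes in limma (852 higher). Trend and robust settings, a further quantile normalization, median centring, cluster means, all clusters and removal of the 40% dimmest genes kept the count within 1.5 times, and quantile normalization turned the split to 529 higher and 561 lower. Same-numbered shUBE4B and shLSD1 arrays deviated together with correlations of 0.19, 0.0788 and 0.198, while those of differently numbered arrays ran from -0.174 to -0.0175. The main fit did not treat the numbers as pairs, and whether same-numbered arrays shared a batch was not tested. The replicate block gave 1275 calls (667 higher, 608 lower). The number of the 530 higher genes with shCTRL nearer to shUBE4B was 142, and ran from 116 to 200 with a control array left out (200 without shCTRL replicate 2), and the other counts of positions stayed within 1.5 times too. Of 93 called genes named by rule, 44 were called in every alternative that tested them, apart from the fit to all clusters, which was not compared gene by gene. A further 7 were lost only on leaving out an array and 42 were lost under the methods' t-test. None of these 93 changed direction. FOXO3, not called, ran from -0.068 to 0.041 with 1 array left out, and was above 0 without shLSD1 replicate 1 (0.012) or shUBE4B replicate 2 (0.041). The cause of these shifts was not tested.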

Other observations

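Zinc finger genes, a family picked after their values were seen and so given without a test, stood high in shUBE4B relative to shLSD1. Of 483 genes whose symbol is ZNF with a number, 41 (8.49%) were called higher in shUBE4B and 1 (ZNF584) lower, beside 2.88% and 2.58% of all genes. The median difference was 0.067, against -0.017 over all genes, and 321 of 483 lay above 0. Most of these genes encode KRAB and C2H2 zinc finger proteins that bind DNA and are known to silence retroelements. The ones farthest apart, after the pseudogene ZNF252P (0.88), were ZNF271P (0.65), ZNF570 (0.62), ZNF30 (0.61) and ZNF345 (0.61). ZNF584 differed by -0.24.

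Side by side and with shared control arrays, the family's median against shCTRL was 0.027 in shUBE4B, with 30 genes called higher and 10 lower, and -0.046 in shLSD1, with 1 higher and 4 lower. In the double knockdown it was -0.045, with 4 higher and 27 lower. The count of 41 was 40 under a further quantile normalization and 40 with median-centred arrays. It was 23, 25 and 11 without shLSD1 replicate 1, 2 or 3, and 13, 15 and 20 without shUBE4B replicate 1, 2 or 3. With array weights it was 85, with the 6 arrays alone 67 and under the methods' t-test 12. Members of this family are close in sequence, and whether probes read more than 1 of them was not tested.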
